A study of Mus musculus with 3 samples.

Results

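Basement membrane and matrix genes are described here in 3 droplet libraries of cells sorted from the mouse small intestine. The set holds 35 genes of 32285 in the files. They were chosen by name from what they encode: chains of collagens and laminins, nidogens and perlecan, adhesive and matricellular proteins, matrix proteases with their inhibitors, and elastic fibre and other matrix proteins. The choice was made with earlier results of these data known. Counts of these genes set beside shares of all genes are therefore not those of a list drawn blind. All 3 libraries form 1 group, and every comparison lies between cell classes of the same library. Per the labels, each library came from the small intestine without the duodenum of 4 wild-type C57Bl/6 females aged 9 to 10 weeks, pooled, with no treatment named. Epithelium was removed in EDTA and DTT before digestion with Liberase TL and DNase I, and the sort took cells without CD45 and with CD31 and podoplanin. The labels do not say whether the libraries shared animals, so p-values cover the spread among these 3 libraries, which may be technical.

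A basement membrane is the thin sheet of matrix under endothelium and epithelium and around muscle and mural cells. Laminins and type IV collagen form its networks, nidogens and perlecan bind them together, and proteases and their inhibitors turn the sheet over. Blood capillaries rest on a continuous sheet and are covered by mural cells, while lymphatic capillaries, lacteals among them, have a sparse, discontinuous one and are tied to the surrounding tissue by fine filaments.

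Classes were gates on raw UMIs (counted RNA molecules) of marker genes, none of them in the set. Lymphatic endothelial cells (LEC) had 1 or more UMIs of Prox1 and 5 or more of Lyve1, and numbered 5689, 5001 and 8264 in libraries 1, 2 and 3. Blood endothelial cells (BEC) had 3 or more UMIs of Flt1 and 0 of Prox1, and numbered 38, 86 and 82. Fibroblasts (Dcn and Pdgfra without Wnt5a) numbered 34, 138 and 71, Wnt5a-positive stroma (Wnt5a and Pdgfra) 14, 61 and 26, and mural cells (Rgs5, Notch3 and Myh11 summed, without Pdgfra) 23, 157 and 54. Each level is CPM, the UMIs of a gene per 1000000 UMIs of the class, and levels were compared within a gene, not between genes. The median LEC of every library had Flt4 and Ccl21a and no UMI of Plvap, Col1a1, Acta2 or Krt8. The median BEC of every library had Plvap and Esam. In library 3 it also had Col3a1 (998 CPM, median over cells), Col1a1 (250), Acta2 (217), Tagln (197) and Flt4 (45.9). These genes were at 0 in the median BEC of libraries 1 and 2. Mmrn1, listed among the LEC markers, was at 0 UMIs in every class. A gate is a range of counts and not a cell type: 66, 76 and 142 LEC lay at 5 or 6 UMIs of Lyve1, and 45, 58 and 87 cells lay just under, at 3 or 4.

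The stromal classes and the BEC gate were small and not pure. They hold the cells that came through a sort on CD31 and podoplanin. Whether these cells stand for BEC and stroma of the intestine was not tested, which limits every comparison of classes below. Fibroblast markers that no gate used (Col1a1, Col1a2, Col3a1, Lum) reached in BEC 2.02%, 7.38% and 20.8% of their fibroblast level in libraries 1, 2 and 3, and in LEC 0.271%, 1.08% and 0.421%. Mural markers (Acta2, Tagln, Cspg4, Des) reached in BEC 3.77%, 14.3% and 33.1% of their mural level, most in library 3. In the 14 Wnt5a-positive cells of library 1 the fibroblast markers stood at 162% of the fibroblast level, against 59.9% and 47.7% in the others. Cells that also carried RNA of a second class were therefore left out in an alternative, which left 126 of 206 BEC, and its values are given beside the results whose calls it changed.

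Promoter sequences of 27 of the 35 genes were in the RefSeq table (build GRCm38.p6, 250 bases before to 50 after the start). The pair Col4a1 and Col4a2 is shown because these genes, which encode the α1 and α2 chains of type IV collagen, start back to back on chromosome 8 and moved together in both comparisons below. Col4a1 lies on the minus strand (chr8:11312777-11313076) and Col4a2 on the plus strand (chr8:11312555-11312854). Their starts lie 21 bases apart and their windows share 78 bases, which are identical when 1 is read as the reverse complement. Capitals mark any match, on either strand, to 4 searched motifs. These were the GC box GGGCGG, the motif CCAAT, the AP-1 motif TGANTCA and the SMAD motif CAGACA. No match overlapped another in the 4 windows shown.
Col4a1: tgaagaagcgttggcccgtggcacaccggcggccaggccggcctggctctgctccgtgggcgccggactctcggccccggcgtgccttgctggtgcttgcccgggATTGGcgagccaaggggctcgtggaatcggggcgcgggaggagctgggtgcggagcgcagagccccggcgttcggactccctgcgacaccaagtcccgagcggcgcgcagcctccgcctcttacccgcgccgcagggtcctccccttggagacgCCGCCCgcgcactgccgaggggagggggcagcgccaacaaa
Col4a2: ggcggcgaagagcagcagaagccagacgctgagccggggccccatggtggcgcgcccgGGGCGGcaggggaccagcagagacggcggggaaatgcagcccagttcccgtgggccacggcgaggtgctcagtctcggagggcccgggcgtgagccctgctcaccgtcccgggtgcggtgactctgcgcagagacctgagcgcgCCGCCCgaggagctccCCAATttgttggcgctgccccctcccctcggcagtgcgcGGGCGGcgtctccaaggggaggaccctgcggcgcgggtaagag
Both windows held 1 CCAAT match, and the GC box matched once in the Col4a1 and 3 times in the Col4a2 window. The GC box of Col4a1 lies in the 78 shared bases and is the same site as 1 of the 3. Of all 32841 windows of this length, 35.7% held a GC box, 37.4% CCAAT, 7.81% the AP-1 motif and 21.0% the SMAD motif.

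The other pair shown lies towards opposite sides of the lymphatic endothelium. Tgfbi (chr13:56609336-56609635, plus strand) had the largest fold of the 35 genes towards one side, and Col23a1 (chr11:51289670-51289969, plus strand) the largest of the collagens towards the other.
Tgfbi: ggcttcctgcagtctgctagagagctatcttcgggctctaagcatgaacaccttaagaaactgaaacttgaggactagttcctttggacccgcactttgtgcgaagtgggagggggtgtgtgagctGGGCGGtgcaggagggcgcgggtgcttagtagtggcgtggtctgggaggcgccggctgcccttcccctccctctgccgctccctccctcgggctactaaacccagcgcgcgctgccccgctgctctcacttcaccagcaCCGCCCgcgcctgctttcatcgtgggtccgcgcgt
Col23a1: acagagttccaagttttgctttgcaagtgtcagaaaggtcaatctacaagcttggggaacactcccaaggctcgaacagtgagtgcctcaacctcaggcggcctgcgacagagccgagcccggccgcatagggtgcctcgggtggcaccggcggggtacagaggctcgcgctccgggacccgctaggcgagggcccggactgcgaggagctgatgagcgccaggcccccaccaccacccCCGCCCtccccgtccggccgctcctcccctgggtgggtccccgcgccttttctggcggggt
Both held the GC box, in 2 places for Tgfbi and 1 for Col23a1, and neither held CCAAT, the AP-1 motif or the SMAD motif. Among the 27 genes, 22 (81.5%) had a GC box, 12 (44.4%) CCAAT, 2 (7.41%) the AP-1 motif and 6 (22.2%) the SMAD motif. Here a gene counted if any of its windows matched, and Col18a1, Postn and Fbln5 had 2 windows. The shares over all windows given above count each window. A match describes the letters and is not a bound site.

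LEC and BEC differed in most of these genes, in both directions. The largest folds towards LEC were those of Reln (log2 7.24 ± 0.35, approximate SE, 3 libraries), Col23a1 (4.85 ± 0.30) and Fndc1 (3.95 ± 0.63), and towards BEC those of Col15a1 (-7.34 ± 0.74), Lama5 (-6.19 ± 0.54) and Sparcl1 (-6.09 ± 0.70). Of the 35 genes, all passed the filter on low counts. edgeR's quasi-likelihood test, with the library as a block and Benjamini-Hochberg adjustment over all 8967 genes tested, put 11 higher in LEC and 17 higher in BEC, and 7 did not pass 0.05. Over all genes tested 33.2% passed, 15.4% higher in LEC and 17.8% higher in BEC. The median log2 fold change of the 35 genes, LEC minus BEC, was -0.89, and that of all genes tested 0.04. Without cells that carried RNA of 2 classes, 13 were higher in LEC and 14 in BEC, where 27.9% of 6846 genes passed.

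**Figure D1:**
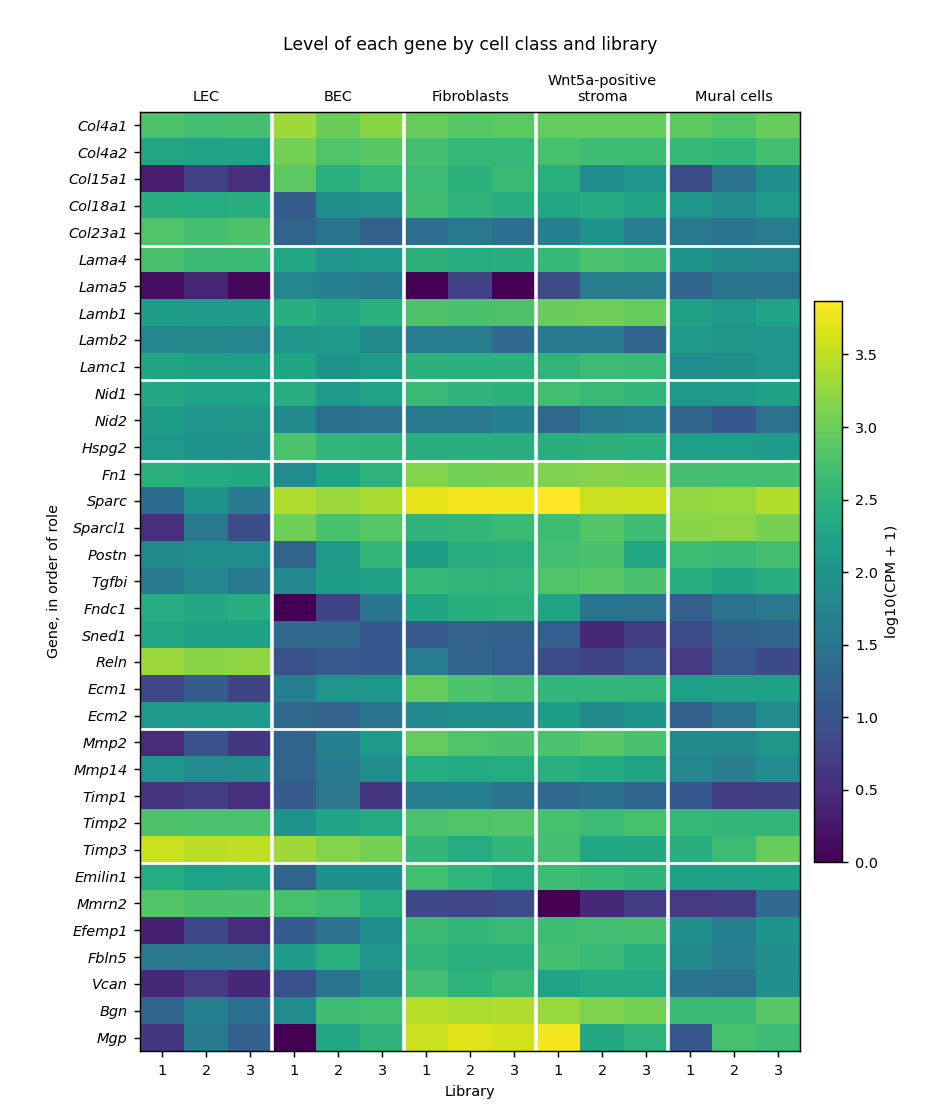
Level of each gene (rows, in order of role) as log10(CPM + 1) in the 5 cell classes and 3 libraries (columns). Reln, Col23a1, Nid2 and Sned1 were brightest in LEC in all 3 libraries, Col4a1 and Col4a2 in BEC, and Bgn and Sparc in the fibroblast and Wnt5a-positive classes.

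Among collagens, the network chains were lower and the others split. Col4a1 stood at 622, 524 and 535 CPM in LEC and at 2048, 1016 and 1535 CPM in BEC of libraries 1, 2 and 3, a fold of 2.63 (log2 -1.39 ± 0.18 approximate SE, edgeR adjusted p = 2.93e-05). Col4a2 stood at 208, 181 and 173 CPM in LEC and at 1172, 632 and 773 CPM in BEC (log2 -2.14 ± 0.19, edgeR adjusted p = 1.43e-06). For both genes every BEC value lay above every LEC value. Col15a1, a collagen of the outer face of basement membranes that carries an endostatin-like fragment, stood at 0.989, 4.61 and 2.38 CPM in LEC and at 779, 285 and 391 CPM in BEC (log2 -7.34 ± 0.74, edgeR adjusted p = 3.94e-06). Its 392 UMIs in LEC were 1.32 times the share that the fibroblast markers gave there.

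Col18a1 and Col23a1 went the other way. Col18a1, the source of endostatin, stood at 263, 245 and 271 CPM in LEC and at 12.6, 86.7 and 89.6 CPM in BEC (log2 1.89 ± 0.37, edgeR adjusted p = 0.0011). Col23a1, a transmembrane collagen, stood at 634, 529 and 618 CPM in LEC and at 16.7, 31.0 and 14.8 CPM in BEC (log2 4.85 ± 0.30, edgeR adjusted p = 8.58e-08). Neither overlapped between the classes. Without cells carrying RNA of 2 classes the log2 difference was 3.93 for Col18a1 and 4.36 for Col23a1.

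The 5 laminin chains differed in direction: 1 was higher in LEC, 3 in BEC and 1 passed in neither. Lama4, the α4 chain of vascular basement membranes, stood at 550, 428 and 437 CPM in LEC and at 205, 103 and 134 CPM in BEC (log2 1.75 ± 0.23, edgeR adjusted p = 4.71e-05). Lama5, the α5 chain, stood at 0.384, 1.58 and 0.209 CPM in LEC, 99 UMIs in all, and at 58.6, 48.3 and 38.0 CPM in BEC (log2 -6.19 ± 0.54, edgeR adjusted p = 1.22e-06). The endothelial α chains thus parted, Lama4 higher in LEC and Lama5 in BEC, with no overlap for either.

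Lamb1, a β chain, was 136 ± 4.94 CPM in LEC and 258 ± 51.9 in BEC (SD, n = 3 libraries), with log2 -0.89 ± 0.18 and edgeR adjusted p = 0.00128, and did not pass without cells carrying RNA of 2 classes (log2 -0.52, edgeR adjusted p = 0.119). Lamb2, the other β chain, was 62.1 ± 4.32 CPM in LEC and 101 ± 28.7 in BEC (log2 -0.65 ± 0.18, edgeR adjusted p = 0.013), and the call was lost without library 1 (0.0668) or library 2 (0.203). Lamc1, the γ1 chain that pairs with these, was 166 ± 16.7 CPM in LEC and 144 ± 48.8 in BEC, overlapped between them and did not pass.

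The cross-linkers split 3 ways. Nid2 stood at 147, 105 and 110 CPM in LEC and at 67.0, 26.0 and 28.5 CPM in BEC (log2 1.79 ± 0.28, edgeR adjusted p = 0.00018). Its paralog Nid1 stood at 213, 166 and 170 CPM in LEC and at 260, 139 and 174 CPM in BEC, values that overlapped (log2 0.00 ± 0.19, edgeR adjusted p = 0.994). Hspg2, which encodes perlecan, stood at 120, 100.2 and 88.5 CPM in LEC and at 599, 353 and 332 CPM in BEC (a 4.01-fold fitted difference, approximate SE 0.20 on the log2 scale, edgeR adjusted p = 3.27e-06). The BEC values of Hspg2 were at least 332 CPM and the LEC values at most 120.

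**Figure D2:**
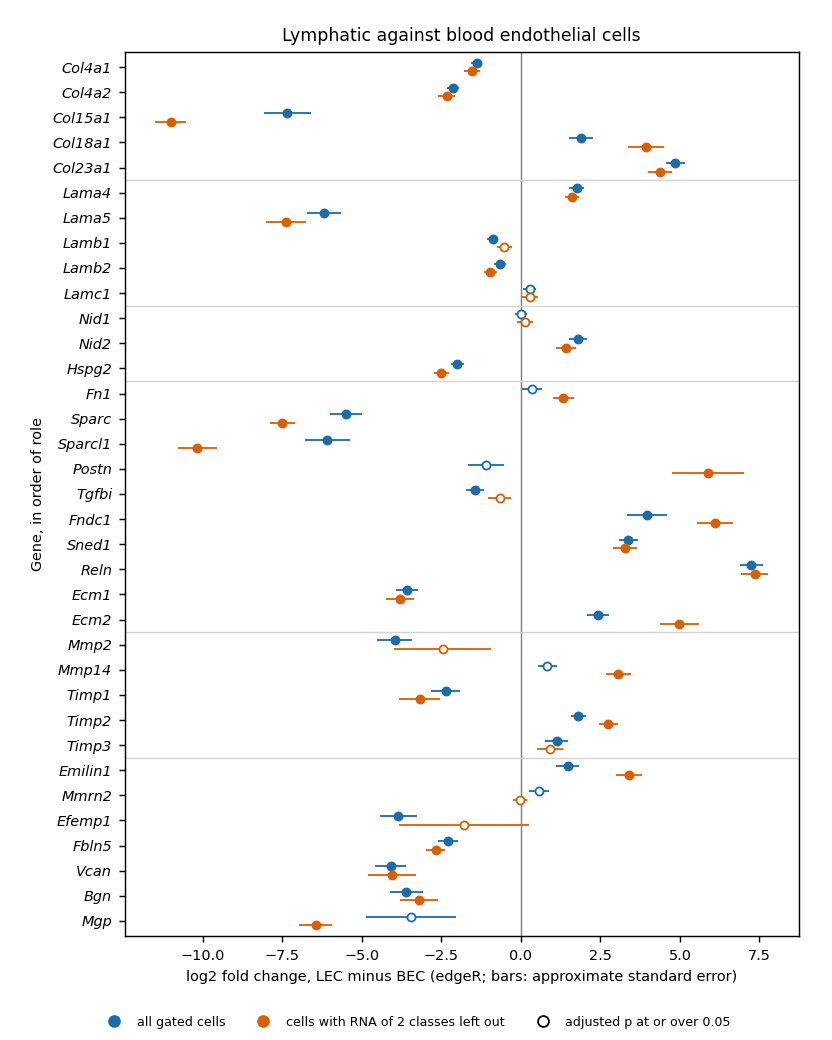
Fitted log2 fold change of each gene, LEC minus BEC, with its approximate standard error, for all gated cells (blue) and without cells carrying RNA of 2 classes (orange); open points did not pass. Reln lies at 7.24, Col15a1 at -7.34, and Postn moves from -1.09 to 5.88 between the blue and the orange point.

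Of the 10 adhesive and matricellular genes, 4 were higher in LEC, 4 in BEC and 2 did not pass. Reln, a secreted glycoprotein best known from neuronal migration, stood at 1927, 1542 and 1672 CPM in LEC and at 8.37, 12.4 and 10.5 CPM in BEC (log2 7.24 ± 0.35, edgeR adjusted p = 2.67e-08). Fndc1, a fibronectin type III domain protein, stood at 249, 219 and 259 CPM in LEC and at 0, 4.95 and 32.7 CPM in BEC (log2 3.95 ± 0.63, edgeR adjusted p = 0.0002). Sned1 was 173 ± 25.3 CPM in LEC and 17.5 ± 6.04 in BEC (log2 3.38 ± 0.29), and Ecm2, of the small leucine-rich repeat kind, 119 ± 5.07 and 22.5 ± 7.37 (log2 2.42 ± 0.34). None of the 4 overlapped between the classes. They were picked by the test on these same values, and the share of all genes without overlap was not counted. The same limit holds wherever a gene is said not to overlap.

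Sparc, Sparcl1, Ecm1 and Tgfbi were higher in BEC. Sparc, a collagen-binding matricellular protein, stood at 22.3, 97.0 and 38.0 CPM in LEC and at 2542, 1920 and 2431 CPM in BEC (log2 -5.50 ± 0.50, edgeR adjusted p = 1.73e-06). Its relative Sparcl1 stood at 2.40, 33.9 and 6.89 CPM in LEC and at 1022, 583 and 711 CPM in BEC (log2 -6.09 ± 0.70, edgeR adjusted p = 1.28e-05). Library 2 was the highest of the LEC in both genes, and it also held the most mural-marker RNA in LEC, 1.75% of the mural level against 0.189% and 0.389%, whose part in these values was not tested. Ecm1 was 7.83 ± 4.00 CPM in LEC and 86.9 ± 35.6 in BEC (log2 -3.59 ± 0.35). Tgfbi, a secreted integrin-binding protein, was 46.5 ± 14.4 CPM in LEC and 122 ± 52.6 in BEC, and lost its call (from 0.00101 to 0.176, edgeR adjusted p) without cells carrying RNA of 2 classes, and without library 3 (0.0557).

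Postn and Fn1 depended on which BEC were counted. Postn, periostin, stood at 69.3, 82.4 and 74.5 CPM in LEC and at 16.7, 126 and 365 CPM in BEC, which overlapped and did not pass (log2 -1.09 ± 0.57, edgeR adjusted p = 0.167). The order of the BEC libraries was that of their mural and fibroblast marker RNA, whose part in these values was not tested. Without cells carrying RNA of 2 classes, BEC held 1 UMI of Postn in all and LEC 68.6, 84.1 and 75.4 CPM, a ratio of 60.5 (exact 95% interval 10.9 to 2390, counting error only), and Postn was higher in LEC (edgeR adjusted p = 6.78e-04). Fn1, fibronectin, was 248 ± 33.8 CPM in LEC and 195 ± 123 in BEC and did not pass, but was higher in LEC without those cells (log2 1.33, edgeR adjusted p = 0.00453).

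Of the proteases and inhibitors, LEC were higher for 2 of the tissue inhibitors and BEC for the third. Timp3, which binds to the matrix, stood at 3673, 2995 and 3134 CPM in LEC and at 2081, 1398 and 1142 CPM in BEC (log2 1.12 ± 0.37, edgeR adjusted p = 0.0298). All LEC values lay above the BEC values, but the call was lost without library 2 (0.171) or library 3 (0.14) and without cells carrying RNA of 2 classes (0.105). Timp2 was 601 ± 17.1 CPM in LEC and 171 ± 68.8 in BEC (log2 1.81 ± 0.24, edgeR adjusted p = 4.66e-05). Timp1 was 2.95 ± 0.670 CPM in LEC and 16.4 ± 15.5 in BEC, with 33 UMIs in BEC in all (log2 -2.37 ± 0.47, edgeR adjusted p = 0.00118), and it did not pass without library 2 (0.331).

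Mmp2, a gelatinase, stood at 2.02, 8.29 and 3.18 CPM in LEC and at 16.7, 47.1 and 127 CPM in BEC (log2 -3.97 ± 0.55, edgeR adjusted p = 6.21e-05). Without cells carrying RNA of 2 classes, BEC held 3 UMIs of it and the difference did not pass (0.267). Mmp14, the membrane protease that activates Mmp2, stood at 109, 74.0 and 83.5 CPM in LEC and at 16.7, 39.6 and 77.0 CPM in BEC, an overlap that did not pass (edgeR adjusted p = 0.0531). It was higher in LEC without those cells (91.2 ± 15.9 CPM against 11.1 ± 2.92, log2 3.07, edgeR adjusted p = 1.18e-05).

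Of the 7 elastic fibre and other matrix genes, Emilin1 was higher in LEC and 4 in BEC. Emilin1, a glycoprotein of elastic fibres and of the filaments that anchor lymphatic capillaries, stood at 246, 177 and 180 CPM in LEC and at 16.7, 87.9 and 86.4 CPM in BEC (log2 1.47 ± 0.35, edgeR adjusted p = 0.00504), with log2 3.41 without cells carrying RNA of 2 classes. Mmrn2, multimerin 2 of endothelial matrix, stood at 682, 573 and 578 CPM in LEC and at 557, 457 and 259 CPM in BEC and did not pass (log2 0.57 ± 0.30, edgeR adjusted p = 0.176). Without those cells its levels were 640 ± 49.4 and 628 ± 24.6 CPM. Fbln5, fibulin-5 of elastic fibre assembly, was 35.5 ± 1.86 CPM in LEC and 177 ± 92.3 in BEC (log2 -2.29 ± 0.31), and Efemp1, Vcan and Bgn lay between 2.30 and 28.9 CPM in LEC and between 36.3 and 355 CPM in BEC. Efemp1 did not pass without those cells (0.587). Mgp, which inhibits calcification, was at 0, 201 and 329 CPM in BEC and did not pass (0.0787); it was higher in BEC without library 1 (log2 -3.45, edgeR adjusted p = 4.19e-04) and without cells carrying RNA of 2 classes (log2 -6.45, edgeR adjusted p = 6.7e-08).

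Over the 5 classes of these sorted cells, most of the genes had their highest mean in a stromal class. With all gated cells no stromal lead passed over the next class. Of the 35, 11 had the highest mean in fibroblasts, 9 in Wnt5a-positive stroma, 7 in LEC, 5 in BEC and 3 in mural cells. The same count over all genes is not given here. Below the stromal lead, the next class was LEC for Col18a1, Lama4, Timp2 and Fndc1. For Lamb2 and Sparcl1 it was BEC (edgeR adjusted p from 0.222 to 0.934 for these genes). A class was called the main source where it was highest in every library and its edgeR contrast with the next class passed 0.05. This held for 7 genes, where 17.8% of all genes tested met it. LEC were the main source of Col23a1, Nid2, Timp3, Reln and Sned1 (8.1% of all genes had LEC as main source), and BEC of Col4a1 and Col4a2 (3.4%). The next class below LEC was Wnt5a-positive stroma for Col23a1 (61.9 ± 27.3 CPM, against 594 ± 56.6) and fibroblasts for Reln (24.3 ± 15.8 CPM, against 1714 ± 196). For Nid2, Timp3 and Sned1 it was BEC, and for Timp3 the call was lost without cells carrying RNA of 2 classes, as given above.

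The BEC lead in type IV collagen over Wnt5a-positive stroma was 0.78 ± 0.18 on the log2 scale for Col4a1 and 0.84 ± 0.19 for Col4a2 (edgeR adjusted p = 0.00549 and 0.00526). In Wnt5a-positive stroma Col4a1 stood at 903, 896 and 914 CPM. The call was lost for Col4a2 without library 2 (0.0696) and for Col4a1 without library 3 (0.0506). For Col15a1, BEC (485 ± 260 CPM) and fibroblasts (385 ± 75.6) did not pass in their contrast, and for Lama5 the same held of BEC and Wnt5a-positive stroma (30.3 ± 20.5 CPM). In cells without RNA of a second class, Col15a1 was higher in BEC (621 ± 248 CPM) than in fibroblasts (266 ± 82.5 CPM; log2 1.15, edgeR adjusted p = 0.0186).

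No gene had fibroblasts or Wnt5a-positive stroma as its main source, where 0.301% and 0.669% of all genes did. Of the 35, 20 were led by either class. None of the 35 passed in edgeR's test between these classes, near the background of 126 of 8967 genes (1.41%). An unadjusted p under 0.05 was found for 12 of the 35, a larger share than the 13.8% of all genes. Both classes passed over LEC, BEC and mural cells for 11 genes, namely Lamb1, Lamc1, Nid1, Fn1, Emilin1, Mmp2, Mmp14, Ecm1, Efemp1, Vcan and Fbln5, where 2.62% of all genes did. Fn1 stood at 1441, 1130 and 1179 CPM in fibroblasts and at 1328, 1480 and 1393 CPM in Wnt5a-positive stroma, above the highest value of any other class. Lamb1 stood at 614, 572 and 625 CPM in fibroblasts and at 971, 1061 and 942 CPM in Wnt5a-positive stroma, where no value overlapped. Nid1 reached 345 ± 47.6 and 423 ± 80.8 CPM there, above both endothelial classes.

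Mgp stood at 3623, 4755 and 4221 CPM in fibroblasts and at 6411, 213 and 320 CPM in Wnt5a-positive stroma. The value of 6411 came from the 14 cells of library 1 with fibroblast markers above the fibroblast level. Without library 1, Mgp was higher in fibroblasts (log2 4.25, edgeR adjusted p = 0.00511). Sparc stood at 5445, 6465 and 6076 CPM in fibroblasts and at 7443, 3632 and 3736 CPM in Wnt5a-positive stroma, again with library 1 apart. Bgn, biglycan, was 2632 ± 218 CPM in fibroblasts and 1458 ± 364 in Wnt5a-positive stroma.

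Mural cells had the highest mean of Lamb2, Sparcl1 and Postn, without passing over the next class (5.31% of all genes had them as main source). Sparcl1 stood at 1513, 1595 and 1202 CPM in mural cells, above the BEC in all 3 libraries (log2 0.96 ± 0.57, edgeR adjusted p = 0.222). Postn stood at 467, 416 and 540 CPM in mural cells and at 506, 581 and 201 CPM in Wnt5a-positive stroma. Lamb2 was 113 ± 9.93 CPM in mural cells and 101 ± 28.7 in BEC. Sparcl1 and Lamb2 passed over BEC without cells carrying RNA of 2 classes (log2 1.45 and 0.68, edgeR adjusted p = 0.00957 and 0.0154). That alternative and doubled gates gave 24 and 19 main sources, but with 4 classes, because too few Wnt5a-positive cells were left in library 1.

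Set against each stromal class, LEC were higher for 8 genes and lower for 22 than fibroblasts (22.3% and 20.9% of all genes), higher for 8 and lower for 23 than Wnt5a-positive stroma (19.0% and 18.0%), and higher for 12 and lower for 18 than mural cells (27.9% and 26.1%). These comparisons share the LEC sums. Lama4 stood at 306, 248 and 269 CPM in fibroblasts, at 391, 588 and 512 in Wnt5a-positive stroma and at 99.0, 67.2 and 56.4 in mural cells. LEC exceeded fibroblasts and mural cells for Lama4 and overlapped Wnt5a-positive stroma.

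Counted over all kept cells, LEC held the greater part of the UMIs, because they were 18954 of 22534 cells. The cells had been sorted on CD31 and podoplanin, so these shares describe the sorted cells and not the intestine. Of the UMIs of all genes, 193595559 in kept cells, LEC held 154137830. For 21 of the 35 genes LEC held 80% or more of the UMIs in the mean over libraries. That cut lies near the LEC share of all UMIs, so the count alone does not set these genes apart. The share ran from 96.8% for Reln to 12.5% for Mgp. Col4a1, higher per UMI in BEC, still had 87.5% of its UMIs in LEC and 2.8% in BEC. Fibroblasts held 49.3% of the UMIs of Mgp and 42.3% of those of Vcan, versican, and mural cells 37.1% of those of Sparcl1. Tgfbi had 29.3% of its UMIs outside the gates. It stood at 132 ± 3.82 CPM in cells gated on Epcam and at 333 ± 44.0 CPM in cells gated on Csf1r.

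**Figure D3:**
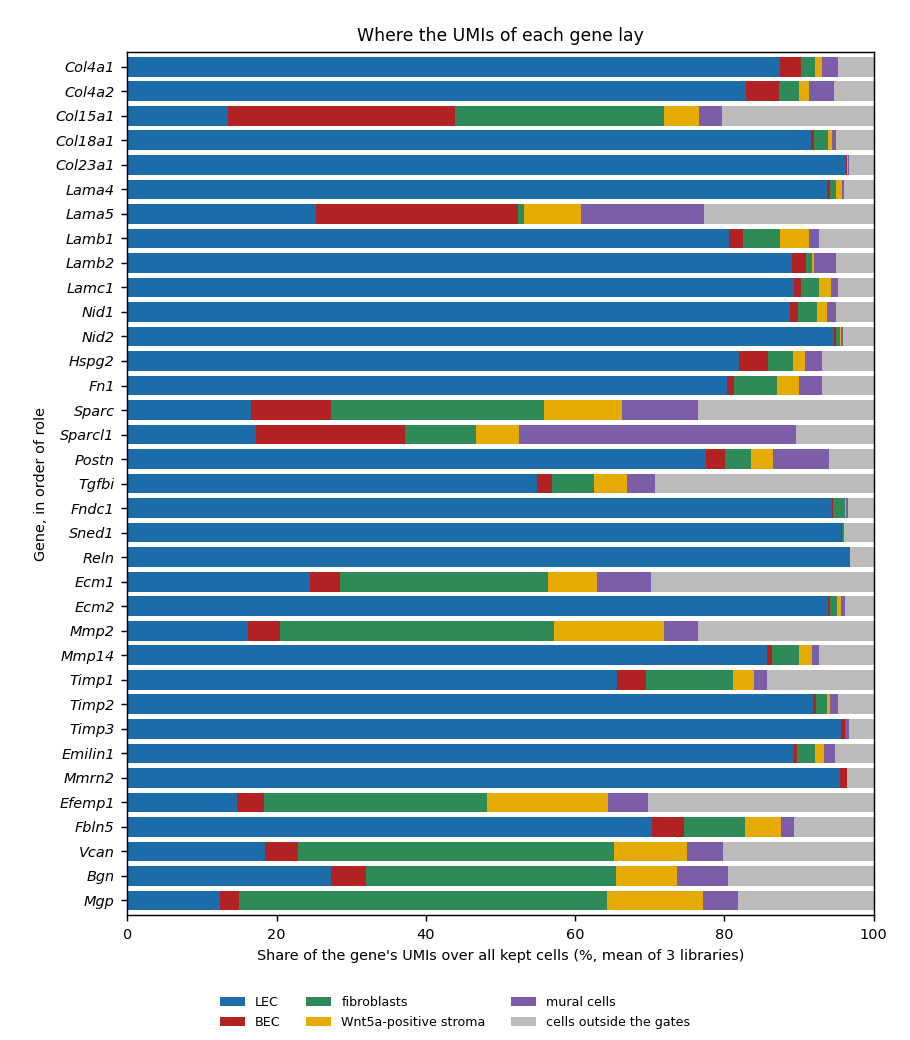
Share of each gene's UMIs over all kept cells (mean of 3 libraries, %) in the 5 classes and in cells outside the gates. LEC hold 96.8% for Reln and 12.5% for Mgp, and the bars reflect both level and the number of cells in a class.

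Within the lymphatic endothelium the genes were set along Clca3a1, which encodes a chloride channel accessory protein, and Itih5, which encodes a heavy chain of an inter-α-trypsin inhibitor. The Clca3a1 side (2 or more UMIs of Clca3a1 and 0 of Itih5) held 572, 586 and 597 cells, the Itih5 side (the reverse) 1713, 1042 and 2064. Cells of the Itih5 side were deeper, with medians of 9361, 8341.5 and 7807 UMIs against 7618.5, 7167 and 6665. Of LEC, 1654, 1853 and 3079 had neither gene. Neither gene is particular to LEC: Itih5 stood at 1205, 889 and 1033 CPM in fibroblasts and at 186, 134 and 173 in LEC, and Clca3a1 at 285, 194 and 145 CPM in BEC and at 67.4, 73.0 and 52.4 in LEC. The fibroblast markers reached 0.0953%, 0.209% and 0.138% of their fibroblast level on the Clca3a1 side and 0.546%, 1.63% and 1.09% on the Itih5 side.

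The Itih5 side had more of Col4a1, Col4a2, the nidogen and perlecan genes, Col23a1, Emilin1 and Mmp14, and the Clca3a1 side more of Tgfbi, Postn, Ecm2, Fndc1, Fbln5, Timp2 and Lamb1. By edgeR with the library as a block, 7 of the 35 genes were higher on the Clca3a1 side, 17 on the Itih5 side and 11 passed in neither direction. Over all 12202 genes tested, 9.97% and 11.4% passed in these directions, 21.4% in all. The median log2 difference, Clca3a1 minus Itih5 side, was -0.32 for the 35 genes and -0.01 for all. Without the library block, 5 and 7 of the genes passed, where 3.56% and 4.34% of all genes did. The fit with the library block has 2 residual degrees of freedom, so its small p-values lean on the spread of genes of similar level.

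Tgfbi had the largest fold towards the Clca3a1 side. It stood at 119, 128 and 125 CPM there and at 10.2, 27.5 and 15.1 CPM on the Itih5 side (log2 2.97 ± 0.19, edgeR adjusted p = 1.54e-05). Postn stood at 192, 140 and 147 CPM and at 31.8, 45.2 and 40.5 CPM (log2 2.09 ± 0.15, edgeR adjusted p = 2.43e-05). For both, the lowest value on the Clca3a1 side was more than 3 times the highest on the Itih5 side. LEC with neither gene lay between, with 44.0 ± 15.3 CPM of Tgfbi and 79.9 ± 6.76 of Postn. Ecm2 stood at 175, 160 and 170 CPM and at 86.5, 99.9 and 108 CPM (log2 0.84 ± 0.07, edgeR adjusted p = 7.14e-05).

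Smaller differences in that direction were those of Fndc1 (287 ± 32.7 against 196 ± 26.0 CPM, log2 0.61 ± 0.06), Fbln5 (42.5 ± 4.09 against 33.5 ± 1.32, log2 0.39 ± 0.08), Timp2 (674 ± 35.5 against 552 ± 12.9, log2 0.34 ± 0.05) and Lamb1 (158 ± 14.1 against 135 ± 3.54, log2 0.29 ± 0.06). Fbln5 and Lamb1 did not pass without the library block. Each of the 7 genes was higher on the Clca3a1 side in 3 of 3 libraries with no overlap. The 7 were picked by the test on these same values, so the lack of overlap adds no support to the calls. The share of all genes without overlap was not counted.

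**Figure D4:**
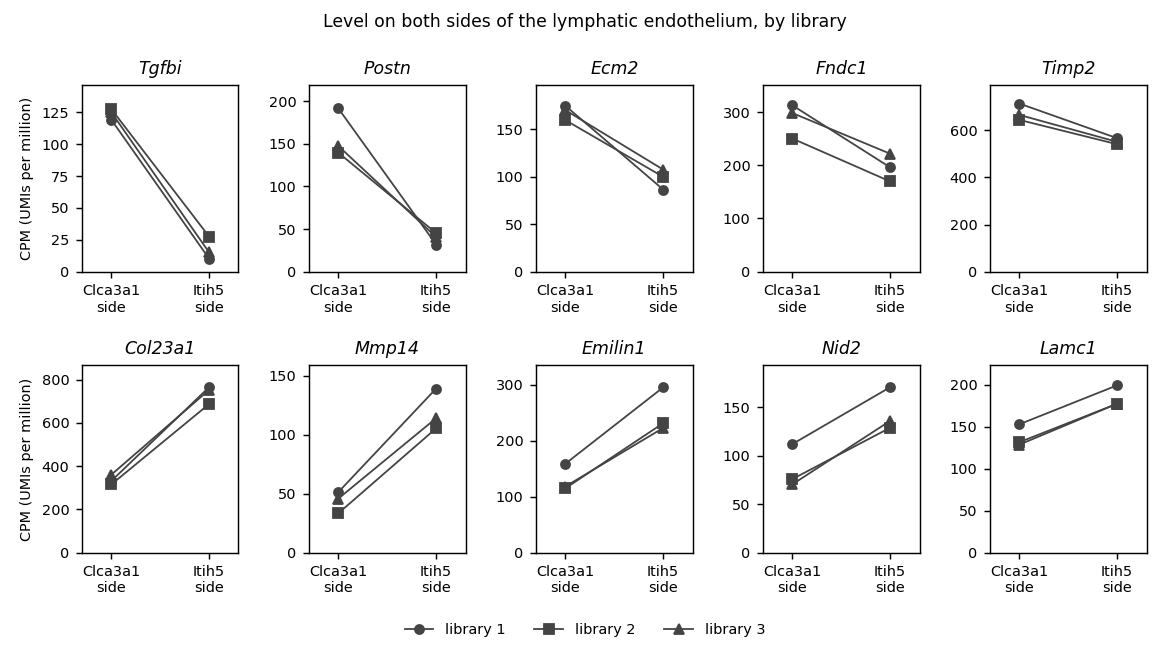
Level (CPM, axes from 0) of 10 genes on the Clca3a1 and the Itih5 side of LEC; each line joins the sums of 1 library. Tgfbi and Postn fall from left to right in all 3 libraries, and Col23a1 and Mmp14 rise in all 3.

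Col23a1 stood at 331, 315 and 360 CPM on the Clca3a1 side and at 766, 688 and 753 CPM on the Itih5 side (log2 -1.08 ± 0.05, edgeR adjusted p = 4.11e-06). Mmp14 stood at 51.3, 33.3 and 45.8 CPM and at 139, 106 and 114 CPM (log2 -1.41 ± 0.08, edgeR adjusted p = 5.17e-06). Emilin1 stood at 159, 115 and 118 CPM and at 296, 232 and 223 CPM (log2 -0.89 ± 0.06, edgeR adjusted p = 1.44e-05). These values did not overlap. The 3 genes kept their differences without cells carrying RNA of 2 classes, with log2 -1.11, -1.43 and -0.89.

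Differences of the basement membrane genes towards the Itih5 side were smaller than that of Col23a1. Nid2 stood at 112, 75.7 and 70.3 CPM on the Clca3a1 side and at 171, 129 and 136 CPM on the Itih5 side (log2 -0.72 ± 0.07, edgeR adjusted p = 0.000133). Col4a1 (475 ± 52.8 against 623 ± 41.8 CPM), Col4a2 (160 ± 3.67 against 208 ± 19.7), Nid1 (155 ± 6.87 against 201 ± 23.7), Hspg2 (88.2 ± 15.9 against 115 ± 14.8) and Lamc1 (138 ± 13.3 against 185 ± 12.6) were lower on the Clca3a1 side by 0.32 to 0.37 on the log2 scale, in 3 of 3 libraries. Fn1 was lower there by 0.26. The values of Hspg2 and of Fn1 overlapped between the sides. Of these, Nid2 and Lamc1 passed also without the library block, and Col4a1, Col4a2, Nid1, Hspg2 and Fn1 did not. Lamb1 went the other way from Lamc1, and Lama4, Lamb2 and Lama5 did not pass. Lama4 was 431 ± 55.1 CPM on the Clca3a1 side and 499 ± 62.2 on the Itih5 side (log2 -0.16 ± 0.05, edgeR adjusted p = 0.0613). It passed towards the Itih5 side without cells carrying RNA of 2 classes (0.0123), with thinned cells (0.0221), with no filter on low counts (0.0264) and with sides at 3 UMIs (0.0375).

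Reln, Timp3, Sned1, Col18a1 and Mmrn2, which set LEC apart from other classes or were abundant in them, did not pass between the sides. Reln stood at 2023, 1649 and 1617 CPM and at 1892, 1580 and 1759 CPM (log2 0.07 ± 0.05, edgeR adjusted p = 0.396), and Timp3 at 3267 ± 296 and 3268 ± 350 CPM (log2 0.06 ± 0.04, edgeR adjusted p = 0.393). Mmrn2 was 550 ± 63.6 CPM on the Clca3a1 side and 636 ± 54.3 on the Itih5 side (log2 -0.16 ± 0.05, edgeR adjusted p = 0.0535). It passed towards the Itih5 side without cells carrying RNA of 2 classes (0.00497), with thinned cells (0.00808) and with no filter on low counts (0.0173). A p that misses the threshold does not show equal levels.

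**Figure D5:**
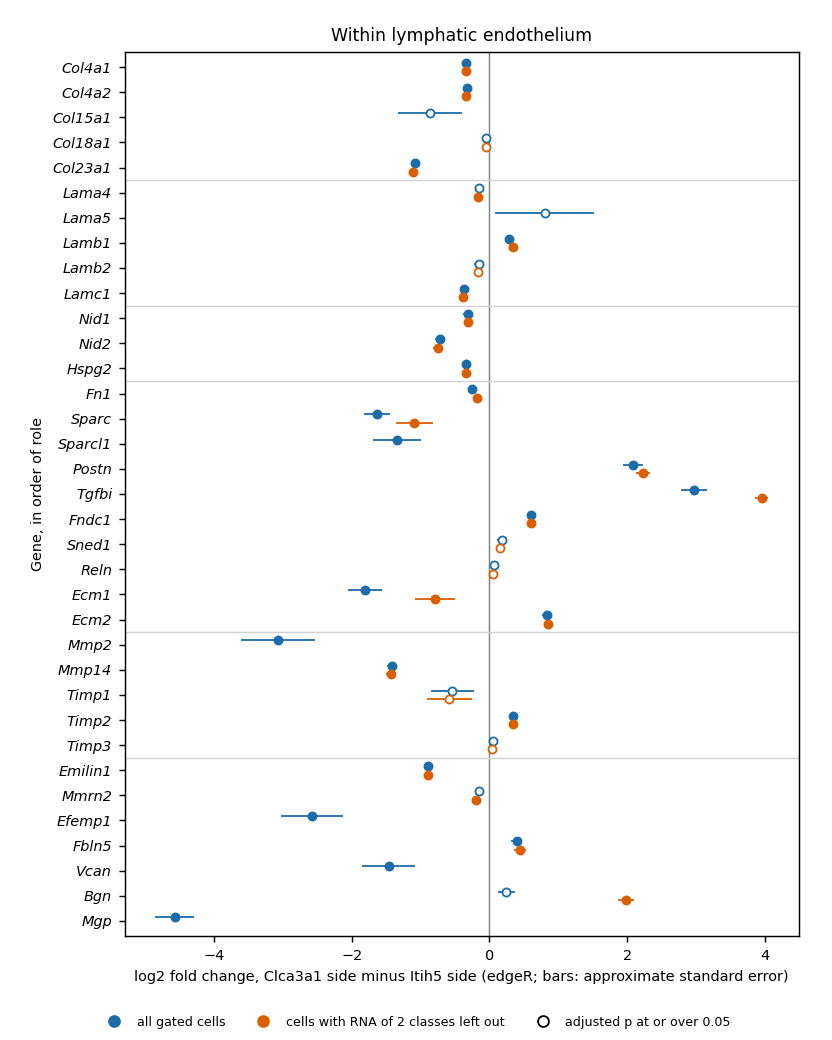
Fitted log2 fold change of each gene, Clca3a1 side minus Itih5 side of LEC, with its approximate standard error, for all gated cells (blue) and without cells carrying RNA of 2 classes (orange); open points did not pass and a missing orange point was not tested. Tgfbi lies at 2.97, Mgp at -4.57, and Bgn moves from 0.25 to 1.98.

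For 8 genes (Sparc, Mmp2, Ecm1, Efemp1, Vcan, Bgn, Mgp and Col15a1) the level in LEC, as a share of the fibroblast level, was under 3 times the share of the fibroblast markers, from 0.691 to 2.09 times. The next gene, Sparcl1, was at 6.63 times. Of the 8, 6 were among the 17 higher on the Itih5 side, which leaves 11 of the other 27. Mgp stood at 0.847, 2.30 and 0.451 CPM on the Clca3a1 side and at 8.09, 46.4 and 37.8 CPM on the Itih5 side (log2 -4.57 ± 0.28, edgeR adjusted p = 1.16e-05). Without cells carrying RNA of 2 classes it stood at 1.09 ± 0.754 and 1.06 ± 0.708 CPM, too low to be tested. Mmp2 (0.460 ± 0.400 and 0.473 ± 0.312 CPM), Efemp1, Vcan and Sparcl1 were likewise too low to be tested then. Sparc remained higher on the Itih5 side (7.46 ± 1.01 against 18.3 ± 14.1 CPM, edgeR adjusted p = 0.00416), although library 1 went the other way, and so did Ecm1 (2.30 ± 0.778 against 4.19 ± 0.885 CPM, edgeR adjusted p = 0.0452).

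Bgn did not pass with all gated cells (40.2 ± 10.0 CPM on the Clca3a1 side, 36.8 ± 17.8 on the Itih5 side). Without cells carrying RNA of 2 classes it stood at 30.4, 42.7 and 37.4 CPM on the Clca3a1 side and at 8.13, 13.0 and 8.48 CPM on the Itih5 side (log2 1.98, edgeR adjusted p = 7.23e-11). It was then higher on the Clca3a1 side in 3 of 3 libraries, with no overlap.

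Other genes of the pathway were taken from 3 lists that do not hold the 35 genes. Of 29 further basement membrane genes 16 were tested between LEC and BEC, with 2 higher in LEC and 7 in BEC, where 15.4% and 17.8% of all genes were. Leaving out cells with RNA of 2 classes, 12 were tested, with 2 and 3, where 13.8% and 14.1% of all genes passed. Ntn1, netrin-1, was 618 ± 54.4 CPM in LEC and 62.1 ± 37.7 in BEC (log2 3.20 ± 0.31), and Lama3, a laminin α chain, 0.289 ± 0.325 and 56.3 ± 14.1 (log2 -7.79 ± 0.67). Between the sides 14 were tested, with 4 higher on the Clca3a1 side, Tinagl1 (80.8 ± 5.43 against 39.9 ± 7.44 CPM), Agrn, Hmcn1 and Col4a5, and 1 on the Itih5 side, Pxdn, peroxidasin that cross-links type IV collagen (91.4 ± 11.3 against 63.3 ± 17.3 CPM). Over all genes 9.97% and 11.4% passed towards these sides. Agrn, Hmcn1 and Col4a5 were named after their values were seen. Col4a5, a further type IV collagen chain, was 13.3 ± 0.995 CPM on the Clca3a1 side and 7.86 ± 1.31 on the Itih5 side, the opposite direction to Col4a1 and Col4a2.

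Of 42 genes of interstitial matrix and its enzymes 38 were tested between LEC and BEC. Of these, 3 were higher in LEC, led by the cross-linking enzyme Loxl2 (178 ± 26.5 against 55.5 ± 33.7 CPM), and 25 in BEC. Over all genes, 15.4% were higher in LEC and 17.8% in BEC. Without cells carrying RNA of 2 classes 33 were tested, with 4 and 8, where 13.8% and 14.1% of all genes passed. Between the sides 35 were tested, with 4 higher on the Clca3a1 side, among them Col14a1 (77.8 ± 7.46 against 53.0 ± 6.28 CPM). On the Itih5 side 18 were higher, led by Col1a1 (44.6 ± 24.2 against 4.93 ± 2.42 CPM). Over all genes 9.97% and 11.4% passed in these directions. Col1a1 is one of the fibroblast markers above, as are Col1a2, Col3a1 and Lum, which were also among the 18. Of 20 receptors 18 were tested in both, against the same shares of all genes. Between LEC and BEC, 2 were higher in LEC, Itga9 and Itgav (178 ± 44.0 against 30.0 ± 5.57 CPM), and 11 in BEC, among them the laminin receptor Bcam (159 ± 46.7 against 3.37 ± 1.87 CPM). Leaving out cells with RNA of 2 classes, 15 receptors were tested, with 3 higher in LEC and 8 in BEC. Over all genes 13.8% and 14.1% passed then. Between the sides, Itga6 and Itgb3 (32.9 ± 5.19 against 19.4 ± 1.31 CPM) were higher on the Clca3a1 side and 8 on the Itih5 side, among them Itga9, an integrin chain needed for lymphatic valves (257 ± 23.7 against 179 ± 19.4 CPM).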

How the data were processed

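The matrices of libraries 1, 2 and 3 had 6931, 7678 and 9932 barcodes and 58857545, 69231794 and 74571090 UMIs. Deposited values are raw UMI counts, whole numbers by their values. The submitters' processing notes name bcl2fastq 2.2, Cell Ranger 6.1.2 and mm10. For the annotation, the release was not given in the sources used here. Kept barcodes (22534) had at least 500 genes and no more than 15% mitochondrial UMIs. Libraries shared 14, 13 and 23 barcodes and were not copies (chi-square over degrees of freedom of their LEC sums 67.9 to 122). No doublet caller was run, and cells with RNA of 2 classes were left out as an alternative. Sums per library and class, at least 10 cells each, were fitted by edgeR 4.0.16 (R 4.3.3) after filterByExpr and TMM scaling. The model had class and library, because the sums of a library share its pool of animals. Across genes, which are not replicates, deviations from the group means in libraries 1, 2 and 3 correlated at 0.517, 0.589 and 0.253 between the LEC sides and at 0.346, 0.208 and -0.191 between LEC and BEC, so the pairing rests on the shared library and not on this check. Standard errors were taken from the fold change and its F statistic and are approximate. DESeq2 1.42.0 was an alternative. The genes and lists were chosen with earlier results of these data known. Named in full were, per role, the gene highest in LEC and those with the largest folds in each direction in either comparison, and per further list the largest passing fold with 20 CPM or more.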

Additional observations from a re-analysis of the deposited data

How the results depend on the processing

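The LEC and BEC count of 2981 genes was 1840 without library 2 and 1813 without library 3 (1813 to 2666 over the 3 omissions), 1836 with cells thinned to 3000 UMIs (5111 genes tested) and 1910 without cells carrying RNA of 2 classes. The count between the LEC sides, 2609, was 965 without the replicate block, 1385 with DESeq2 and 1634 without library 3 (1634 to 2621 over the omissions). Leaving out the block changed the genes of the set higher on the Itih5 side from 17 to 7. Between LEC and BEC the fit without the replicate block gave 3025. Main sources numbered 7, and 24 without cells carrying RNA of 2 classes and 19 with gates doubled, both with 4 classes. Between LEC and BEC, Nid1 changed sign with RLE factors (-0.081), DESeq2 (-0.055), thinning (-0.22), doubled gates (-0.023) and over omitted libraries (-0.17 to 0.072), Fn1 over omitted libraries (-0.18 to 0.89), and Mmrn2 (-0.037) and Postn (5.88) without cells carrying RNA of 2 classes. Lama5 changed sign between the sides over omitted libraries (-0.062 to 1.29). Between the 2 leading classes, signs changed for Lama4 with no filter (-0.075), for Emilin1 (-0.038) and Efemp1 (-0.094) with thinning, over omitted libraries for Lama4 (-0.10 to 0.22), Col15a1 (-0.048 to 0.44), Fn1 (-0.033 to 0.16), Mgp (-0.37 to 4.25), Emilin1 (-0.060 to 0.13) and Mmp14 (-0.045 to 0.28), and for Timp2 (-0.18), Mmrn2 (-0.037) and Fndc1 (-0.076) without cells carrying RNA of 2 classes. The causes were not tested. Values of single genes kept direction and side of the threshold in 347 cases for LEC and BEC, 332 for the sides and 237 for the leading classes, lost it in 14, 23 and 6, and passed newly in 14, 13 and 10. Depth was low in BEC, with 1994717 UMIs in 206 cells, and in Wnt5a-positive stroma, with 970298 UMIs in 101 cells.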
